A study of Mus musculus with 6 samples.

Results

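DNA replication and G1/S genes were followed in mouse embryonic fibroblasts, connective tissue cells taken from embryos and grown in culture. The group comprised 45 genes chosen by name for their roles, of 17658 genes named on the array, and every probe annotated to them was read. Their 78 probes gave 54 with a signal above background on at least 2 of the 6 arrays. Those 54 probes covered 40 genes, which were the ones tested, of 7408 genes tested in all. Where a gene had several tested probes, as 12 of the 40 did, its brightest probe over the 6 arrays stood for it.

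The series asked which genes depend on IKKa, a kinase of the NF-kB pathway. It held 3 groups with 2 samples each: cells labelled wild-type, cells labelled IKKa-/- (IKKa-null below) and cells labelled IKKa+/+reconstituted (reconstituted below). All were grown in medium with fetal calf serum and taken before full confluency, and their total RNA was hybridised to Illumina bead arrays, 1 array a sample. Strain, embryo age, passage, clone and the construct used for reconstitution are not given in the sources used here. Whether the 2 samples of a group were separate cultures is not stated, so the p-values below reflect the spread between these particular samples, and that spread may be technical.

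A eukaryotic cell prepares its replication origins in G1. The origin recognition complex, with Cdc6 and Cdt1, loads the ring-shaped Mcm2 to Mcm7 helicase, a step called licensing, and geminin (Gmnn) blocks Cdt1 after S phase has begun. Mcm10, Cdc45 and the GINS complex then turn the loaded ring into a moving helicase. DNA polymerase alpha and primase lay down primers, replication factor C opens the sliding clamp Pcna and closes it around the primed DNA, and polymerases delta and epsilon copy the strands. Many of these genes are transcribed together when E2F factors are released from the retinoblastoma protein at the G1/S boundary, so in cultured fibroblasts their RNA is a common read-out of proliferation.

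Because E2F sites are a known feature of these genes, promoters were searched on both strands for TTTCCCGC, TTTCGCGC, TTTGCCGC and TTTGGCGC. Overlapping matches were counted each. RefSeq promoters of the GRCm38.p6 build, 250 bases before to 50 after a start, were given for 37 of the 45 genes. A match lay in 12 of those 37 (32.4%), against 704 of 27025 genes with a promoter in the table (2.6%). Among the genes tested here, a match lay in 4 of the 20 with a promoter that differed in at least 1 comparison (20%) and in 5 of the 12 that differed in none (41.7%). Of the 5 genes that were not tested, 3 held a match (60.0%). Shown are 120-base windows upstream of the start for 3 genes that fell in IKKa-null cells, and for Mcm6, chosen after its values were seen as a gene whose brightest probe was not called. Each is on the gene's own strand with the matched letters in capitals. The windows are chr11:98907957-98908076 (plus strand) for Cdc6, chr5:138171985-138172104 (minus) for Mcm7, chr8:75109304-75109423 (plus) for Mcm5 and chr1:128359706-128359825 (minus) for Mcm6.
Cdc6: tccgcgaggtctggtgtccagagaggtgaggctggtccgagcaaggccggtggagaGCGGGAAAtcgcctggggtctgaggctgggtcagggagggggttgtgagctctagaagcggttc
Mcm7: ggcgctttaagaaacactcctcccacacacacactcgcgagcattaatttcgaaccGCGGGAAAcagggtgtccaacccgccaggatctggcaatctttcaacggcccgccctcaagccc
Mcm5: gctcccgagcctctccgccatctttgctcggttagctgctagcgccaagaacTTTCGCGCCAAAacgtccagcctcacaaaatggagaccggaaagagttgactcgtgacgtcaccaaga
Mcm6: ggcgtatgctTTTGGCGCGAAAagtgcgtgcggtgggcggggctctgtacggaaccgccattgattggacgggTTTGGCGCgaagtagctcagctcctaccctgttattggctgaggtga
In Cdc6 the match spanned bases 138 to 131 before the start, and in Mcm7 bases 165 to 158. In Mcm5, TTTCGCGC and, on the other strand, TTTGGCGC overlapped at bases 153 to 142 before the start. In Mcm6 the same pair of letters overlapped at bases 110 to 99, and a further TTTGGCGC lay at bases 47 to 40. A match to these letters describes the sequence and does not show that a factor binds there.

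The arrays had a median intensity between 111.1 and 123.1 units and a median over 394 background probes between 100.8 and 114.45. The first lies near the second, so it does not describe the brightness of expressed genes. Between 9204 and 11074 probes lay above background on each array, fewest on reconstituted array 2 and most on reconstituted array 1. Over the 40 genes the SD of the log2 difference between the 2 arrays was 0.23 in wild type, 0.279 for IKKa-null and 0.391 for reconstituted cells, so the reconstituted values were the least precise. Across all tested probes, which are not independent replicates, the 2 arrays of a group correlated at 0.979, 0.975 and 0.968 (Pearson) in that order. Chuk, which encodes IKKa, is not analysed here, so the labels were not checked on the targeted gene. Of 11 fibroblast markers, 9 lay above background on at least 2 arrays, whereas Lum and Fap did so on none. Among the 9, Vim was above background on the 2 IKKa-null arrays alone. Col1a2 and Col3a1 were so on 1 of the 2 wild-type arrays. The 4 endothelial, 3 skeletal muscle and 3 adipocyte markers, and the 2 blood markers with a probe, were below background on every array. Krt14 was the 1 of 5 epithelial markers above background on at least 2 arrays, and Tubb3 and Nes were the 2 of 3 neural markers.

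The wild-type cells also differed from both other groups in material that was not IKKa. The SV40 large T probe, for a viral protein known to bind the retinoblastoma protein and p53, gave 4431.6 and 6076.1 intensity units on the wild-type arrays, 88.6 and 111.8 on the IKKa-null arrays and 212.3 and 203.2 on the reconstituted arrays. It lay above background on both wild-type and both reconstituted arrays and on neither IKKa-null array. The neomycin resistance probe ran the other way, with 106.5 and 117.8 units in wild type, 2433.1 and 2230.7 in IKKa-null and 3458.1 and 2638.1 in reconstituted cells. Xist, expressed from the inactive X chromosome, was at least 5.83-fold lower in IKKa-null and at least 5.04-fold lower in reconstituted than in wild-type cells (limma, adjusted p = 0.000456 and 0.000417). The Y-linked gene Eif2s3y was at least 4.46-fold and at least 3.51-fold higher (limma, adjusted p = 7.56e-05 and 7.85e-05). In every comparison with wild type below, IKKa, large T and the origin of the cells therefore cannot be told apart. Reconstituted and IKKa-null cells also differed in large T and in a Moloney murine sarcoma virus probe. The latter gave 292 and 219.5 units in reconstituted and 3260.7 and 3524.9 in IKKa-null cells. In that comparison IKKa cannot be told apart from such differences either.

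In IKKa-null cells, replication genes as a group were lower than in wild type. Of the 40 tested, 23 fell and 0 rose, where 15.4% of all 7408 genes fell and 13.6% rose (limma, Benjamini-Hochberg adjusted p under 0.05 over 11666 probes). At an unadjusted p under 0.05, 27 were lower and 0 higher, where 1728 and 1363 of all 7408 genes were. The median log2 change was -0.73, against -0.12 over all genes tested, and single genes ranged from -1.41 (Cdc6) to 0.34 (E2f1). Both IKKa-null arrays lay below both wild-type arrays for 32 of the 40, and 41.5% of all genes did the same. For 1 of the 40, E2f1, both lay above, as for 28.8% of all genes. In such bulk RNA, fewer cycling cells and less RNA of each gene per cell cannot be told apart.

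In reconstituted cells the group was also lower than in wild type. Set against wild type, 21 of the 40 fell and 0 rose, where 21.3% of all genes fell and 15.6% rose, and the median log2 change was -0.87 against -0.14 over all genes. At an unadjusted p under 0.05, 27 were lower and 1 higher, where 2100 and 1462 of all 7408 genes were. Both reconstituted arrays lay below both wild-type arrays for 31 of the 40 and above them for 3, beside 42.6% and 29.3% of all genes. These comparisons share the 2 wild-type arrays, so they are not independent of each other. Set against IKKa-null cells directly, 1 of the 40 fell in reconstituted cells, Rrm2, and 0 rose, where 7.37% of all genes fell and 6.87% rose. At an unadjusted p under 0.05, 3 were lower and 2 higher, where 1187 and 1077 of all 7408 genes were. The median log2 change was 0.11 (-0.024 over all genes), with a range from -1.02 to 0.56. Both reconstituted arrays lay above both IKKa-null arrays for 12 genes and below them for 8, beside 28.2% and 31.9% of all genes.

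Some markers of cell type differed between the groups as well, and are named here after their values were seen. Krt14, the 1 epithelial marker tested of 5 with a probe, fell by 1.86 in IKKa-null cells and was at least 3.29-fold lower in reconstituted cells, where it was below background (limma, adjusted p = 0.00081 and 0.000124). The summed normalised signal of those 5 markers was 402 and 379 in wild type, 191 and 218 in IKKa-null and 163 and 159 in reconstituted cells. Of the 2 neural markers tested, Tubb3 fell in IKKa-null cells by 0.65 (limma, adjusted p = 0.0303). That call was lost with no background correction and with the deposited matrix, which is nearly the same setting. It was also lost under median scaling and without any 1 of the 4 arrays compared. Of the 9 fibroblast markers tested, 2 fell and 1 rose in IKKa-null cells, beside 15.4% and 13.6% of all genes. In reconstituted cells 5 rose and 0 fell relative to wild type, beside 15.6% and 21.3% of all genes. Relative to IKKa-null cells 4 rose and 0 fell there, beside 6.87% and 7.37% of all genes. Thy1, Dcn and Pdgfra were 39.6-fold, 21.4-fold and 18.5-fold higher in reconstituted than in IKKa-null cells (limma, adjusted p = 0.000431, 0.00382 and 7.39e-05). The summed signal of the 11 fibroblast markers with a probe was 4572 and 4240 in wild type, 6016 and 5832 in IKKa-null and 15942 and 18701 in reconstituted cells. The part of these differences in the results on replication genes was not tested.

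**Figure D1:**
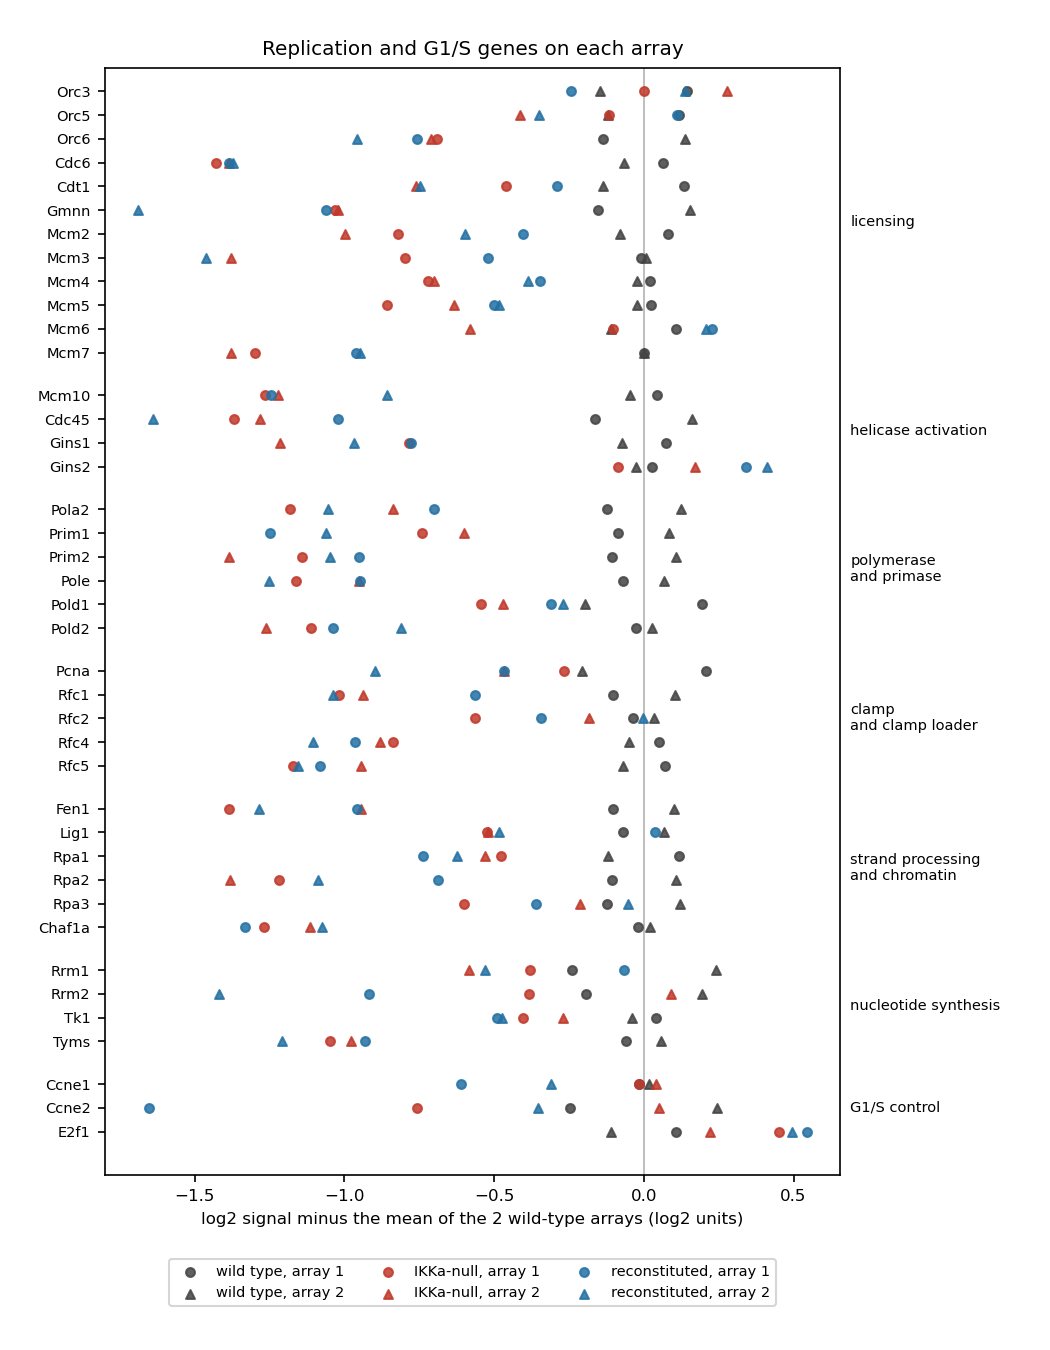
Log2 signal of each tested gene on each of the 6 arrays, minus the mean of its 2 wild-type arrays (x axis, log2 units), with genes ordered by role on the y axis; circles are arrays numbered 1 and triangles arrays numbered 2. Most IKKa-null and reconstituted points lie to the left of 0, while those of Orc3 and Gins2 lie around it or to its right and those of E2f1 to its right.

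**Figure D2:**
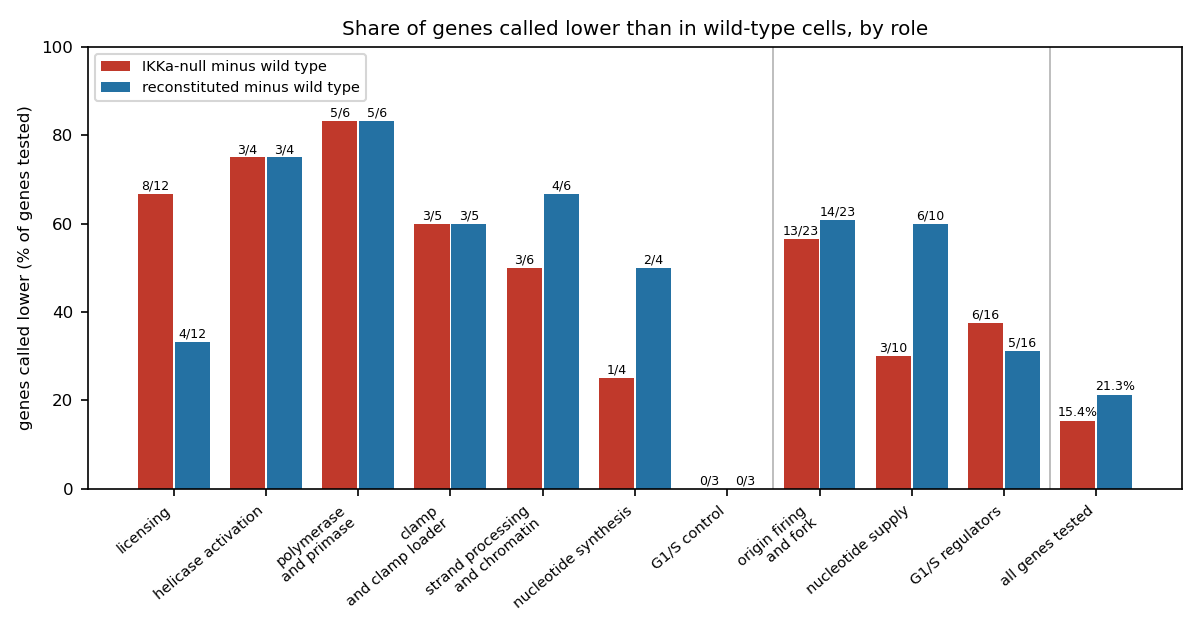
Share of tested genes called lower than in wild type (y axis, percent), by role (x axis), in IKKa-null and reconstituted cells, with the counts above the bars. The first 7 pairs are the 40 genes described here, the next 3 are other genes of the process, and the last pair is all 7408 genes, at 15.4% and 21.3%.

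The leave-out fits and the scaling set limits on those counts. Calls over all genes were not counted in these alternatives, so whether all genes lost calls alike was not tested. In IKKa-null against wild type, the count of 23 fell to 13 without wild-type array 1, 9 without wild-type array 2, 11 without IKKa-null array 1 and 13 without IKKa-null array 2. In reconstituted against wild type, the count of 21 was 17, 10, 22 and 15 without wild-type arrays 1 and 2 and reconstituted arrays 1 and 2. Median scaling, in place of quantile normalisation, ended 14 of the 23 calls and left those of Cdc6, Mcm7, Mcm10, Cdc45, Prim2, Pold2, Fen1, Rpa2 and Chaf1a. It ended 5 of the 21 and added Mcm3 and Ccne2. The 23 and the 21 genes kept the sign of their change in each of the 17 alternatives in which they were tested, which include those fits; Gmnn, among both, was tested in 16. Of the genes not called, 6 of 17 in IKKa-null and 10 of 19 in reconstituted cells were called in at least 1 alternative.

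Licensing genes made up the largest class, with 12 of 15 tested. In IKKa-null cells 8 fell and 0 rose, beside 15.4% and 13.6% of all genes, with a median log2 change of -0.73. In reconstituted cells 4 fell and 0 rose relative to wild type, beside 21.3% and 15.6% of all genes, with a median of -0.51. Cdc6, which brings the helicase to the origin, gave log2 signals of 10.27 and 10.13 in wild type, 8.77 and 8.82 in IKKa-null and 8.81 and 8.83 in reconstituted cells. The wild-type arrays stood well above the other 4, which lay close together. Cdc6 fell by 1.41 ± 0.16 on the log2 scale in IKKa-null cells, a 2.65-fold difference (change ± SE, limma, adjusted p = 0.00169). In reconstituted cells it fell by 1.38 ± 0.16 (limma, adjusted p = 0.00157). Both calls held in each of the 6 fits that left out 1 array.

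Gmnn, the inhibitor of Cdt1, was dim, with log2 signals of 7.28 and 7.59 in wild type, 6.40 and 6.41 in IKKa-null and 6.37 and 5.75 in reconstituted cells. The second reconstituted array was below background, and wild type did not overlap the other groups. Its change was -1.03 ± 0.25 in IKKa-null cells (limma, adjusted p = 0.022) and -1.37 ± 0.25 in reconstituted cells (limma, adjusted p = 0.00648). The first of these was lost when any of the 4 arrays compared was left out, with values from -1.18 to -0.86. Its partner Cdt1 gave 11.13 and 10.86 in wild type, 10.54 and 10.24 in IKKa-null and 10.71 and 10.25 in reconstituted cells. The wild-type arrays were the highest, but Cdt1 was not called in either group (-0.61 and -0.52, limma, adjusted p = 0.0868 and 0.116).

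Of the 6 subunits of the Mcm helicase ring, 5 fell in IKKa-null cells and 1 in reconstituted cells relative to wild type, where 15.4% and 21.3% of all genes fell. These counts depended on the processing. With no background correction 5 fell in both groups, and with the deposited matrix, which is nearly the same setting, 5 did again. Under median scaling the IKKa-null count was 1 and the reconstituted count 2. The IKKa-null call of Mcm7 held in each fit that left out 1 array. Those of Mcm3, Mcm4 and Mcm5 were lost without any 1 of the 4 arrays compared. That of Mcm2 was lost without wild-type array 1 or IKKa-null array 2. In reconstituted cells the call of Mcm7 also held in each fit, and Mcm3 was called as well without reconstituted array 1. Mcm7 gave log2 signals of 10.91 and 10.91 in wild type, 9.61 and 9.53 in IKKa-null and 9.95 and 9.97 in reconstituted cells. No groups overlapped, and the reconstituted arrays lay between the others. Mcm7 fell by 1.34 ± 0.16 in IKKa-null cells (2.53-fold, limma, adjusted p = 0.00192) and by 0.95 ± 0.16 in reconstituted cells (limma, adjusted p = 0.00533). Its second probe gave 9.04 and 9.10, 7.59 and 7.39, and 7.99 and 7.68 in the same order, and was also lower in both (-1.57 and -1.23, limma, adjusted p = 0.00185 and 0.00382).

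Mcm2 gave log2 signals of 10.75 and 10.59 in wild type, 9.85 and 9.68 in IKKa-null and 10.27 and 10.08 in reconstituted cells. It fell by 0.91 ± 0.18 in IKKa-null cells (limma, adjusted p = 0.0115), a call lost without wild-type array 1 (-0.83) or IKKa-null array 2 (-0.81), and gave -0.50 in reconstituted cells without passing the test (limma, adjusted p = 0.0665). Mcm4 and Mcm5 fell in IKKa-null cells (-0.71 and -0.75, limma, adjusted p = 0.0181 and 0.0191) and gave -0.37 and -0.49 in reconstituted cells, where neither was called (limma, adjusted p = 0.114 and 0.0602). Without 1 of the 4 arrays compared, both were no longer called in IKKa-null cells, with values from -0.74 to -0.69 for Mcm4 and from -0.86 to -0.63 for Mcm5. For 5 of the 6 subunits, Mcm2, Mcm4, Mcm5, Mcm6 and Mcm7, both reconstituted arrays lay above both IKKa-null arrays, beside 28.2% of all genes. None of the 6 passed the test between those groups, where the log2 change ran from 0.10 to 0.56.

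Mcm3 was the least even of the subunits, with 9.11 and 9.13 in wild type, 8.32 and 7.74 in IKKa-null and 8.60 and 7.66 in reconstituted cells. Array 2 was the lower in IKKa-null and in reconstituted cells, by more than the gap between those groups. Its fall of 1.09 ± 0.34 in IKKa-null cells sat at the threshold (limma, adjusted p = 0.0498) and was lost without any 1 of the 4 arrays compared (from -1.38 to -0.80). It was also lost under median scaling (-1.02), with cyclic loess (-1.01) and with no filter on dim probes. In reconstituted cells it gave -0.99 and was not called (limma, adjusted p = 0.0564), but it was called there in 7 of the 17 alternatives, with the replicate block among them (limma, adjusted p = 0.0245).

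Mcm6 depended on the probe. Its brightest probe gave log2 signals of 10.41 and 10.19 in wild type, 10.20 and 9.72 in IKKa-null and 10.53 and 10.51 in reconstituted cells, and was not called in either group against wild type (-0.34 and 0.22, limma, adjusted p = 0.263 and 0.447). A second probe under the same accession gave 5.28 and 4.97 in wild type, below background on both arrays, but 9.83 and 9.67 in IKKa-null and 9.90 and 9.56 in reconstituted cells. That probe was at least 11.1-fold higher in IKKa-null and at least 10.9-fold higher in reconstituted cells (limma, adjusted p = 6.79e-05 and 4.24e-05), where a bound sets the bright mean against the lowest signal above background. It was called higher in each alternative that tested it separately; it was not tested among probes above background on all 6 arrays. A further Mcm6 probe was below background on all 6 arrays. The probes therefore disagree on Mcm6, and why was not tested.

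The origin recognition complex itself was only partly measured. Orc1, Orc2 and Orc4 were not tested, with raw intensities between 85.5 and 192.5 units over their probes and arrays. Orc6 fell in IKKa-null cells by 0.70 and in reconstituted cells by 0.86 (limma, adjusted p = 0.0298 and 0.012). The first call was lost without any 1 of the 4 arrays compared (from -0.84 to -0.57) and the second without wild-type array 2 (-0.73) or reconstituted array 2 (-0.76). Orc3 and Orc5 were not called in any comparison, and their arrays overlapped between groups.

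**Figure D3:**
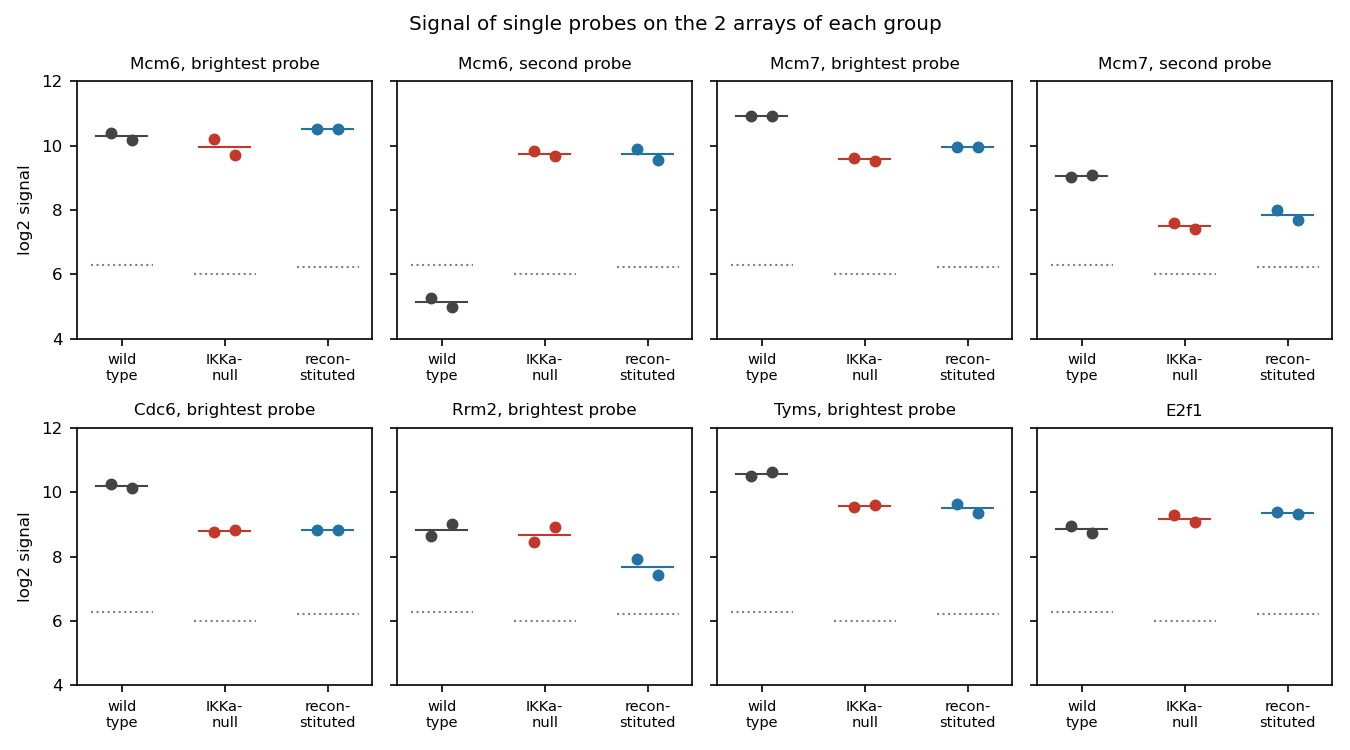
Log2 signal (y axis) of single probes on the 2 arrays of each group (points) with the group mean (solid line); the dotted line is the mean over the group's arrays of the lowest signal above background. The second Mcm6 probe lies below that line in wild type and near 9.7 in the other groups, whereas both Mcm7 probes are highest in wild type.

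Helicase activation genes were tested in full, and 3 of 4 fell in both groups, beside 15.4% and 21.3% of all genes. Their median log2 changes were -1.12 in IKKa-null and -0.96 in reconstituted cells. Cdc45, which travels with the moving helicase, gave log2 signals of 8.33 and 8.66 in wild type, 7.13 and 7.21 in IKKa-null and 7.47 and 6.86 in reconstituted cells. Wild type stood above both other groups, and the reconstituted arrays bracketed the IKKa-null ones. Cdc45 fell by 1.32 ± 0.25 and by 1.33 ± 0.25 (limma, adjusted p = 0.00928 and 0.00736). The first call was lost without IKKa-null array 1 (-1.28) or wild-type array 2 (-1.15), and the second without wild-type array 2 (-1.16).

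Mcm10, which helps to activate the helicase, gave 8.44 and 8.35 in wild type, 7.13 and 7.17 in IKKa-null and 7.15 and 7.54 in reconstituted cells. It fell by 1.24 ± 0.19 and by 1.05 ± 0.19 (limma, adjusted p = 0.00475 and 0.00701), and both calls held in each fit that left out 1 array. Of the GINS subunits, Gins1 gave 8.98 and 8.84, 8.12 and 7.70, and 8.13 and 7.94 in the same order, and fell by 1.0 and 0.87 (limma, adjusted p = 0.0135 and 0.0172). Leaving out either wild-type array or array 2 of the other group ended both calls, with values of -0.92, -1.06 and -0.79 in IKKa-null and -0.79, -0.94 and -0.78 in reconstituted cells. Gins2 gave 9.13 and 9.07 in wild type, 9.01 and 9.27 in IKKa-null and 9.44 and 9.51 in reconstituted cells. It was not called by either of its 2 probes, and for the brighter one the reconstituted arrays were the highest (0.37 against wild type, limma, adjusted p = 0.134).

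Polymerase and primase genes had the highest share of falls among the 7 roles, 5 of the 6 tested in both groups. Beside them, 15.4% and 21.3% of all genes fell. Their median log2 changes were -1.03 and -0.96. Under median scaling the IKKa-null calls of Pola2, Prim1 and Pole were lost, and the ranking did not hold in that group. The same calls were lost without IKKa-null array 1, and the ranking failed there too. Without wild-type array 2 it failed in reconstituted cells, where the calls of Pola2, Prim2 and Pold2 were lost. Prim2, the large primase subunit, gave log2 signals of 8.20 and 8.41 in wild type, 7.16 and 6.92 in IKKa-null and 7.35 and 7.25 in reconstituted cells. No groups overlapped. Prim2 fell by 1.26 ± 0.18 and by 1.0 ± 0.18 (limma, adjusted p = 0.00364 and 0.00702), and the second call was lost without wild-type array 2 (-0.89). Prim1, the catalytic primase subunit, gave 8.62 and 8.79, 7.96 and 8.10, and 7.45 and 7.64 in the same order. Here the reconstituted arrays were the lowest. Prim1 fell by 0.67 in IKKa-null cells, a call lost without any 1 of the 4 arrays compared (from -0.75 to -0.58), and by 1.15 ± 0.18 in reconstituted cells (limma, adjusted p = 0.0302 and 0.00397).

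Pola2, the regulatory subunit of polymerase alpha, gave log2 signals of 8.80 and 9.05 in wild type, 7.74 and 8.09 in IKKa-null and 8.23 and 7.87 in reconstituted cells. It fell by 1.01 and 0.88 (limma, adjusted p = 0.0155 and 0.0203). The first call was lost without IKKa-null array 1 (-0.84) or wild-type array 2 (-0.87), and the second without wild-type array 1 (-0.99), wild-type array 2 (-0.74) or reconstituted array 2 (-0.70). The catalytic subunit Pola1 was not tested, with raw intensities between 71.1 and 101.3 units.

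Pole, the catalytic subunit of polymerase epsilon, gave log2 signals of 9.37 and 9.51 in wild type, 8.28 and 8.49 in IKKa-null and 8.50 and 8.19 in reconstituted cells. It fell by 1.06 ± 0.19 and by 1.10 ± 0.19 (limma, adjusted p = 0.00847 and 0.00592), and the first call was lost without IKKa-null array 1 (-0.95) or wild-type array 2 (-0.98). Pold2, an accessory subunit of polymerase delta, gave 11.16 and 11.21, 10.07 and 9.92, and 10.14 and 10.37 in the same order, and fell by 1.19 ± 0.18 and by 0.92 ± 0.18 (limma, adjusted p = 0.004 and 0.00802). The reconstituted call was lost without wild-type array 2 (-0.90). The catalytic Pold1 gave 11.04 and 10.65, 10.30 and 10.38, and 10.54 and 10.58, with wild type above both other groups, and was not called (-0.51 and -0.29, limma, adjusted p = 0.09 and 0.27). With no background correction and with the deposited matrix, which are nearly the same setting, Pold1 was called lower in IKKa-null cells (-0.48 in both, limma, adjusted p = 0.037 in both). The difference between the 2 subunits was not tested.

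**Figure D4:**
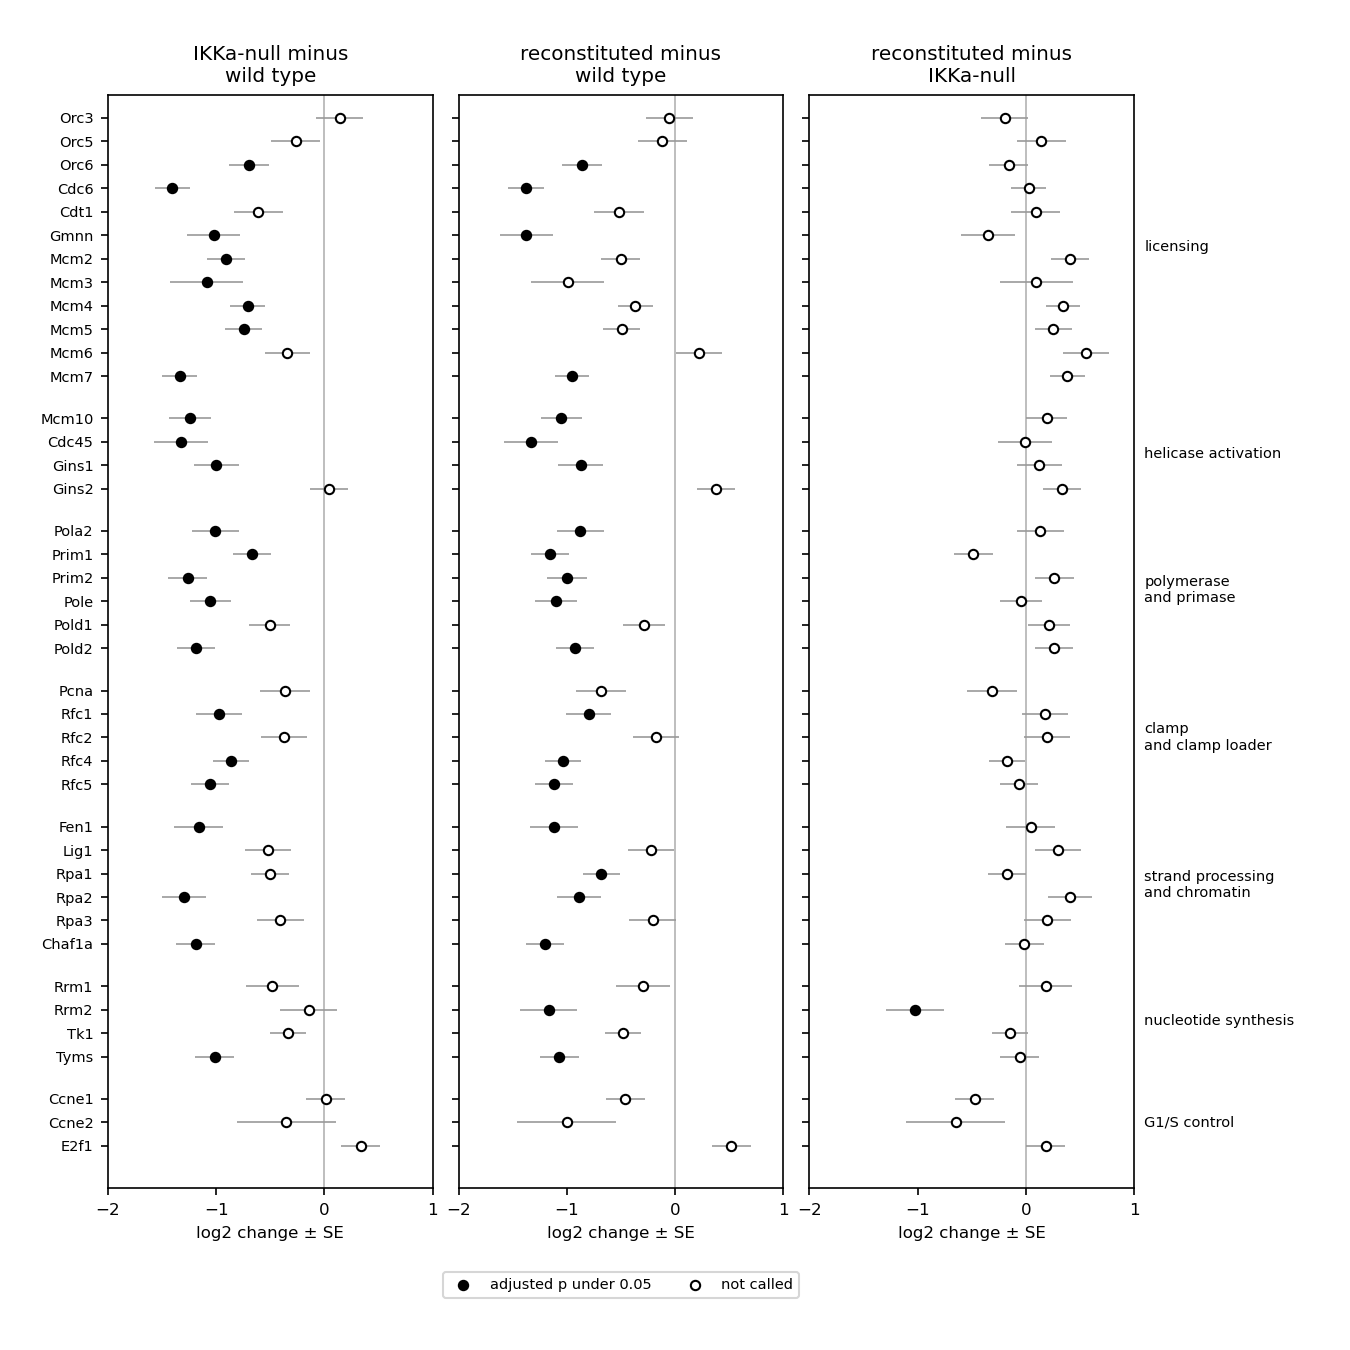
Log2 change ± SE (x axis) of each tested gene (y axis, ordered by role) in the 3 comparisons; filled points passed an adjusted p under 0.05. Filled points number 23, 21 and 1 from left to right, and the single one in reconstituted minus IKKa-null is Rrm2.

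Of the clamp and its loader, 3 of 5 tested genes fell in both groups, beside 15.4% and 21.3% of all genes. All 3 were loader subunits, and the class had median log2 changes of -0.86 and -0.80. Rfc5 gave log2 signals of 10.58 and 10.43 in wild type, 9.34 and 9.56 in IKKa-null and 9.42 and 9.35 in reconstituted cells, and Rfc4 gave 10.18 and 10.08, 9.30 and 9.25, and 9.17 and 9.03. For both small subunits the wild-type arrays lay apart from the other 4. Rfc5 fell by 1.06 ± 0.18 and by 1.12 ± 0.18 (limma, adjusted p = 0.00622 and 0.00433) and kept both calls in each fit that left out 1 array, but under median scaling the first was lost (-0.98, limma, adjusted p = 0.0712). Rfc4 fell by 0.86 ± 0.17 and by 1.03 ± 0.17 (limma, adjusted p = 0.0107 and 0.00464), with the first call lost without any 1 of the 4 arrays compared (from -0.91 to -0.81).

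Rfc1, the large loader subunit, gave log2 signals of 8.59 and 8.80 in wild type, 7.68 and 7.76 in IKKa-null and 8.13 and 7.66 in reconstituted cells. It fell by 0.98 and 0.80 (limma, adjusted p = 0.0158 and 0.0253). Without any 1 of the 4 arrays compared the first call was lost (from -1.07 to -0.86), as was the second without wild-type array 1 (-0.90), wild-type array 2 (-0.69) or reconstituted array 2 (-0.57). The brightest of 3 Rfc2 probes gave 10.18 and 10.25, 9.65 and 10.03, and 9.87 and 10.21 in the same order and was not called (-0.37 and -0.17, limma, adjusted p = 0.223 and 0.543). Its other 2 probes were lower in IKKa-null cells (-0.73 and -1.21, limma, adjusted p = 0.0402 and 0.0057), and none of the 3 was called in reconstituted cells. Pcna, the clamp, gave 9.05 and 8.64 in wild type, 8.58 and 8.38 in IKKa-null and 8.38 and 7.95 in reconstituted cells. Its wild-type arrays were the highest, but Pcna was not called (-0.37 and -0.68, limma, adjusted p = 0.272 and 0.0573). Rfc3 was not tested, with raw intensities between 90.9 and 129.6 units.

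Strand processing and chromatin genes were tested in full: 3 of 6 fell in IKKa-null cells and 4 of 6 in reconstituted cells. Beside them, 15.4% and 21.3% of all genes fell. Their median log2 changes were -0.84 and -0.78. Chaf1a, the large subunit of the chromatin assembly factor that deposits histones on new DNA, gave log2 signals of 9.12 and 9.16 in wild type, 7.87 and 8.02 in IKKa-null and 7.81 and 8.06 in reconstituted cells. The reconstituted arrays bracketed the IKKa-null ones and all 4 lay below wild type. Chaf1a fell by 1.19 ± 0.18 and by 1.20 ± 0.18 (limma, adjusted p = 0.00419 and 0.00352), and both calls held in each fit that left out 1 array. Fen1, the nuclease that trims Okazaki fragments, gave 10.81 and 11.01, 9.52 and 9.97, and 9.95 and 9.62 in the same order. It fell by 1.16 ± 0.22 and by 1.12 ± 0.22 (limma, adjusted p = 0.0104 and 0.00943). The first call was lost without IKKa-null array 1 (-0.93) or wild-type array 2 (-1.07), and the second without wild-type array 2 (-1.02).

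Of the subunits of replication protein A, which coats single-stranded DNA, Rpa2 gave log2 signals of 9.20 and 9.41 in wild type, 8.09 and 7.92 in IKKa-null and 8.62 and 8.22 in reconstituted cells. It fell by 1.30 ± 0.21 in IKKa-null cells and by 0.89 ± 0.21 in reconstituted cells (limma, adjusted p = 0.00515 and 0.0158), the latter lost without wild-type array 2 (-0.78) or reconstituted array 2 (-0.69). A second Rpa2 probe was also called lower in IKKa-null cells (-1.27) but was not called in reconstituted cells (-0.96). Rpa1, the largest subunit, gave 12.10 and 11.87, 11.51 and 11.45, and 11.25 and 11.36 in the same order. It fell in reconstituted cells by 0.68 (limma, adjusted p = 0.0228), a call lost without any 1 of the 4 arrays compared (from -0.80 to -0.57), and gave -0.50 in IKKa-null cells without passing the test (limma, adjusted p = 0.07). Rpa3, the smallest, gave 9.44 and 9.68 in wild type, 8.96 and 9.35 in IKKa-null and 9.20 and 9.51 in reconstituted cells, and was not called (-0.41 and -0.21, limma, adjusted p = 0.2 and 0.483).

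Lig1, the ligase that seals Okazaki fragments, again varied by probe. Its brightest probe gave log2 signals of 9.60 and 9.74 in wild type, 9.15 and 9.15 in IKKa-null and 9.71 and 9.19 in reconstituted cells and was not called (-0.52 and -0.22, limma, adjusted p = 0.111 and 0.443). Its other 2 tested probes were lower in IKKa-null cells (-0.71 and -1.46, limma, adjusted p = 0.0229 and 0.0217), and 1 of them in reconstituted cells (-1.30, limma, adjusted p = 0.0264).

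All 4 nucleotide synthesis genes gave a negative log2 change relative to wild type in both groups, as did 4265 and 4303 of all 7408 genes. Both arrays lay below both wild-type arrays for 3 of the 4 in each group, beside 41.5% and 42.6% of all genes. Fewer were called. In IKKa-null cells 1 of 4 fell, and in reconstituted cells 2 of 4, beside 15.4% and 21.3% of all genes. Their median log2 changes were -0.41 and -0.78. Tyms, thymidylate synthase, gave log2 signals of 10.52 and 10.64 in wild type, 9.53 and 9.60 in IKKa-null and 9.65 and 9.37 in reconstituted cells. The wild-type arrays lay apart, and the reconstituted arrays bracketed the IKKa-null ones. Tyms fell by 1.01 ± 0.18 and by 1.07 ± 0.18 (limma, adjusted p = 0.00789 and 0.00525), with the first call lost without wild-type array 2 (-0.96), and its second probe was lower in both (-1.34 and -1.66, limma, adjusted p = 0.00744 and 0.00287).

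Rrm2, the small subunit of ribonucleotide reductase that limits deoxynucleotide supply in S phase, was the single gene of the group to differ between reconstituted and IKKa-null cells. Its log2 signals were 8.63 and 9.02 in wild type, 8.45 and 8.92 in IKKa-null and 7.91 and 7.41 in reconstituted cells. Wild-type and IKKa-null arrays overlapped, and both reconstituted arrays lay below the other 4. Rrm2 fell in reconstituted cells by 1.02 ± 0.26 relative to IKKa-null (2.03-fold, limma, adjusted p = 0.0481) and by 1.17 ± 0.26 relative to wild type (limma, adjusted p = 0.0148), and gave -0.15 in IKKa-null against wild type (limma, adjusted p = 0.71).

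The Rrm2 calls were fragile. That against IKKa-null remained without reconstituted array 1 (-1.28) and was lost in each of the other 5 leave-out fits, with values from -1.26 to -0.78. The call against wild type was lost without wild-type array 2 (-0.96) or reconstituted array 2 (-0.93). A second, dimmer Rrm2 probe gave 7.20 and 7.60 in wild type, 7.07 and 7.57 in IKKa-null and 6.78 and 6.61 in reconstituted cells. Its reconstituted arrays were again the lowest, but it was not called against IKKa-null or wild type (-0.62 and -0.71, limma, adjusted p = 0.138 and 0.0549).

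The other 2 enzymes were not called in any comparison. Rrm1, the large reductase subunit, gave log2 signals of 9.63 and 10.11 in wild type, 9.49 and 9.28 in IKKa-null and 9.80 and 9.34 in reconstituted cells, with overlap between reconstituted and wild-type arrays. Tk1, the S-phase thymidine kinase, gave 9.91 and 9.83, 9.46 and 9.60, and 9.38 and 9.39 in the same order, with changes of -0.34 and -0.48 relative to wild type (limma, adjusted p = 0.167 and 0.0581). Its wild-type arrays were the highest.

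Of the G1/S control genes, 0 of 3 were called by limma in any comparison. The median log2 change was 0.013 in IKKa-null and -0.46 in reconstituted cells. At an unadjusted p under 0.05, 1 of the 3 was higher and 1 lower in reconstituted against wild-type cells, beside 1462 and 2100 of all 7408 genes. Against IKKa-null cells 1 was lower, beside 1187 of all 7408 genes. E2f1, an activator of replication genes, gave log2 signals of 8.95 and 8.73 in wild type, 9.29 and 9.06 in IKKa-null and 9.39 and 9.34 in reconstituted cells. Both other groups lay above wild type, opposite to most of the 40 genes, with changes of 0.34 ± 0.18 and 0.52 ± 0.18 that did not pass the test (limma, adjusted p = 0.202 and 0.0609). The reconstituted difference was called higher with no background correction, a background offset of 50, cyclic loess, the deposited matrix and probes above background on all arrays, with values between 0.44 and 0.60. Of these, no background correction and the deposited matrix are nearly the same setting.

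The cyclin E genes, whose products activate Cdk2 at the G1/S boundary, were dim or uneven. Ccne2 gave 7.45 and 7.94 in wild type, 6.94 and 7.75 in IKKa-null and 6.05 and 7.34 in reconstituted cells. Array 2 was higher than array 1 in each group, and the SE of 0.46 was the widest of the 40 genes. Its changes were -0.35 and -1.0 (limma, adjusted p = 0.59 and 0.128). The second was called lower with the replicate block (-1.0, limma, adjusted p = 0.0176), under median scaling (-1.05, limma, adjusted p = 0.039) and without reconstituted array 2 (-1.69, limma, adjusted p = 0.0317). Ccne1 gave 6.51 and 6.54, 6.51 and 6.57, and 5.91 and 6.21 in the same order. It was below background on both reconstituted arrays and was not called.

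Other genes of the same process were read from lists of 67 genes outside the 45, of which 51 were tested. In IKKa-null cells 23 fell and 5 rose (45.1% lower, against 15.4% of all genes lower and 13.6% higher). In reconstituted cells 25 fell and 5 rose relative to wild type (49.0% lower, against 21.3% lower and 15.6% higher). Between reconstituted and IKKa-null cells 4 fell and 0 rose, a share of 7.84% that is near the 7.37% of all genes. With 1 array left out, the falls against wild type numbered 9 to 24 in IKKa-null and 9 to 24 in reconstituted cells, the lowest counts being without wild-type array 2. Under median scaling they numbered 12 and 16. The median log2 changes were -0.62, -0.58 and -0.0067, against -0.12, -0.14 and -0.024 over all genes.

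Origin firing and fork genes gave 13 lower and 1 higher of 23 in IKKa-null cells, beside 15.4% and 13.6% of all genes. In reconstituted cells 14 were lower and 1 higher than in wild type, beside 21.3% and 15.6% of all genes. Chtf18 and Dscc1, which belong to an alternative clamp loader, fell by 1.59 and 1.34 in IKKa-null and by 1.48 and 2.04 in reconstituted cells (limma, adjusted p = 0.00128, 0.00629, 0.00147 and 0.00119). Dscc1 was above background on 1 of the 2 reconstituted arrays. Recql4, a helicase of origin firing, fell by 1.75 and 1.94 (limma, adjusted p = 0.0145 and 0.00804), and was above background on 1 of 2 arrays in each of those groups. The first Recql4 call was lost without wild-type array 1 (-1.90), wild-type array 2 (-1.58) or IKKa-null array 2 (-1.35), and the second without wild-type array 2 (-1.77). The 1 that rose was Pold4, the smallest subunit of polymerase delta, with log2 signals of 7.01 and 6.92 in wild type, 8.97 and 9.01 in IKKa-null and 8.62 and 8.77 in reconstituted cells. Wild type was the lowest of the 3 groups without overlap, the reverse of Pold2. Pold4 rose 4.08-fold and 3.32-fold (limma, adjusted p = 0.000456 and 0.000722).

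Nucleotide supply genes gave 3 lower and 1 higher of 10 in IKKa-null cells, beside 15.4% and 13.6% of all genes. In reconstituted cells 6 were lower and 1 higher than in wild type, beside 21.3% and 15.6% of all genes. Shmt1, which feeds folate-bound carbon units to thymidylate synthesis, fell in both groups (-1.57 and -1.65, limma, adjusted p = 0.00133 and 0.00095), and Dck, deoxycytidine kinase, by 1.68 and 1.41 (limma, adjusted p = 0.00629 and 0.00921). Dck was above background on 1 of the 2 IKKa-null arrays. The second Dck call was lost without wild-type array 2 (-1.43). Like Rrm2, Dut, which clears dUTP, and Ctps, CTP synthase, were lower in reconstituted than in IKKa-null cells. Ctps fell by 1.01 (limma, adjusted p = 0.0219), and Dut, below background on both reconstituted arrays, was at least 1.03-fold lower (limma, adjusted p = 0.0201). Both calls were lost without either IKKa-null array or reconstituted array 2, with values from -1.06 to -0.78 for Ctps, and that of Dut also without reconstituted array 1.

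G1/S regulators outside the 45 genes gave 6 lower and 3 higher of 16 in IKKa-null cells, beside 15.4% and 13.6% of all genes. In reconstituted cells 5 were lower (31.2%) and 3 higher, beside 21.3% and 15.6% of all genes. Cdkn1a, the cell cycle inhibitor p21 and a target of p53, gave log2 signals of 9.19 and 8.88 in wild type, 11.80 and 11.85 in IKKa-null and 10.37 and 9.88 in reconstituted cells. No groups overlapped, and the reconstituted arrays lay between the others. Cdkn1a rose 6.90-fold in IKKa-null cells and was 2.13-fold higher in reconstituted cells than in wild type (limma, adjusted p = 0.000419 and 0.0101), the latter call being lost without wild-type array 2 (0.94 on the log2 scale) and under median scaling (0.91). Relative to IKKa-null cells it fell by 1.70 in reconstituted cells (limma, adjusted p = 0.00411). The other of the 2 regulators called in that comparison was Rb1, the retinoblastoma gene, named here after its values were seen. Rb1 was dim, with log2 signals of 6.76 and 6.51 in wild type, 7.63 and 7.44 in IKKa-null and 6.52 and 6.29 in reconstituted cells, and the IKKa-null arrays were the highest. It rose by 0.91 in IKKa-null relative to wild-type cells and fell by 1.13 in reconstituted relative to IKKa-null cells (limma, adjusted p = 0.0142 and 0.011). The first Rb1 call was lost without either IKKa-null array or wild-type array 2 (from 0.78 to 1.0), and the second without either IKKa-null array or reconstituted array 2 (from -1.22 to -1.03).

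Ccnd1, cyclin D1 of early G1, gave log2 signals of 11.65 and 11.80 in wild type, 13.83 and 14.18 in IKKa-null and 13.23 and 13.37 in reconstituted cells, and rose 4.87-fold and 2.98-fold (limma, adjusted p = 0.000501 and 0.00182). Cdkn2a, the locus of p16 and p19ARF, gave 9.67 and 9.23, 7.89 and 7.85, and 7.43 and 7.37 in the same order, and fell by 1.58 and 2.05 (limma, adjusted p = 0.00226 and 0.000735). E2f2 was below background on both IKKa-null arrays and at least 1.82-fold lower there than in wild type (limma, adjusted p = 0.0251). That call was lost without wild-type array 1, wild-type array 2 or IKKa-null array 1, and with no filter on dim probes. Of the 2 proliferation markers, Top2a fell by 0.77 in IKKa-null cells (limma, adjusted p = 0.0269), a call lost without any 1 of the 4 arrays compared (from -0.86 to -0.68), under median scaling (-0.69) and with the mean of its probes (-0.38), and Mki67 was not called in any comparison.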

How the data were processed

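The 45 genes, their roles and the other lists were chosen with earlier results of these data known. Per the file headers, the deposited array files hold unnormalized average bead intensity values exported from BeadStudio, and the values look free of background subtraction. The deposited matrix holds quantile-normalized intensity on a linear scale, and the authors' steps for it are not stated. Names came from the matrix's probe annotation, to which 46116 of 46120 probes were matched through their values on the 6 arrays (to 3 decimals). The match was made on quantile-normalized raw intensities, so the matrix holds nearly the same values as no background correction and is no separate check.

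Intensities were background-corrected (limma 3.58.1 in R 4.3.3, nec, with 394 immune receptor, spike and non-mouse probes as negative controls and an offset of 16), quantile-normalized and set to log2. A signal counted as above background if fewer than 1% of the background probes reached it on that array, and probes so on at least 2 arrays were tested. All 6 arrays entered 1 limma fit (lmFit, eBayes) with 3 group means, 3 residual and 3.97 prior degrees of freedom. Two-sided moderated tests were adjusted by Benjamini-Hochberg over 11666 probes, and a call is an adjusted p under 0.05. Where a group was below background on both arrays, the fold is a bound against the lowest signal above background. The fit was tested on simulated data. The number of arrays limits the precision, and the headers name no batch beyond a shared export.

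Genes with full values were, per role, up to 5 called in at least 1 comparison by largest change and up to 2 called in none. Up to 4 per outside list followed the same size rule. Alternatives covered background correction, scaling, the matrix, the filter, the probe for a gene, the arrays fitted, a replicate block and each array left out.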

Additional observations from a re-analysis of the deposited data

How the results depend on the processing

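The limits come first from 2 arrays a group. As above, the counts in the alternatives stand without a share over all genes, which was not computed there. Over the 6 fits that each left out 1 array, the genes called lower numbered 9 to 23 in IKKa-null against wild type (median log2 change from -0.78 to -0.72), 10 to 22 in reconstituted against wild type (median from -0.93 to -0.70) and 0 to 1 in reconstituted against IKKa-null cells (median from -0.024 to 0.13), and 0 were called higher in each. Of the 23 and 21 genes lower than in wild type, 8 and 10 kept their call in all 6 of those fits, and 7 and 9 in all 17 alternatives; Gmnn kept its call in reconstituted cells in the 16 that tested it.

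Median scaling left 9 lower in IKKa-null cells (median -0.62): Cdc6, Mcm7, Mcm10, Cdc45, Prim2, Pold2, Fen1, Rpa2 and Chaf1a. It gave 18 lower in reconstituted cells (median -1.0), turned the median of reconstituted against IKKa-null cells to -0.080, and moved the median of all genes from -0.12 to -0.013, from -0.14 to -0.20 and from -0.024 to -0.19 in the same order. The cause was not tested. In IKKa-null against wild type the median was -0.67 with no background correction and with the deposited matrix, -0.61 with cyclic loess, -0.88 with the probe of lowest adjusted p and -0.83 with the mean of probes. In reconstituted against wild type it was -0.67 with no background correction and with the matrix, -0.79 with an offset of 50, -0.76 with cyclic loess and -0.80 with no filter on dim probes. A single gene, 1 in place of 0, was called higher in reconstituted against wild-type cells under 7 alternatives. The matrix among them nearly repeats no background correction. The gene was E2f1 with no background correction, an offset of 50, cyclic loess, the matrix and probes above background on all 6 arrays. It was Mcm6 with the probe of lowest adjusted p or the mean of probes. Mcm6 was also the 1 higher in IKKa-null cells under the last 2, at 4.63 and 2.14, since its second probe then counts. That probe was below background in wild type, so these are no measured sizes and the bound of at least 11.1-fold for the probe stands. The call of Rrm2 against IKKa-null, the 1 lower there, became 0 with no filter, the mean of probes, only the 4 arrays compared or a replicate block.

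Genes near no change turned sign without being called. In reconstituted against wild-type cells, Orc3 was at 0.027 and Orc5 at 0.00026 with cyclic loess. In IKKa-null cells Orc5 was at 0.11 with the probe of lowest adjusted p and Gins2 at -0.026 with the mean of probes. With 1 array left out, values in IKKa-null cells ran from -0.0092 to 0.29 for Orc3, -0.41 to 0.11 for Orc5, -0.086 to 0.17 for Gins2, -0.38 to 0.090 for Rrm2, -0.016 to 0.041 for Ccne1 and -0.75 to 0.048 for Ccne2. In reconstituted cells they ran from -0.25 to 0.14 for Orc3, -0.35 to 0.069 for Orc5 and -0.49 to 0.038 for Lig1.

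Samples share the replicate numbers 1 and 2, but the labels tie no number to a day or batch. Deviations of same-numbered arrays correlated at 0.297 (IKKa-null and wild type), 0.369 (reconstituted and IKKa-null) and 0.0508 (reconstituted and wild type) over 11666 probes, which does not settle a pairing. With the replicate block, 24 genes were lower in IKKa-null and 24 in reconstituted cells than in wild type, and 0 differed between those groups.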

Other observations

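The probe pattern seen for Mcm6 was counted over the array. Below background on both wild-type arrays and at least 8-fold higher in fitted signal in both other groups were 25 tested probes, 23 of them with 1 gene symbol. Mcm6 was the 1 gene among those 23 that had a brighter probe called in neither comparison. In raw intensity its second probe gave 120.6 and 119.5 units in wild type, 1008 and 1002.2 in IKKa-null and 1209.7 and 647.2 in reconstituted cells, while its brightest gave 1326.3 and 1357.2, 1280.4 and 1034.5, and 1820.4 and 1154.2.

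IKKa-null and reconstituted cells both carried the neomycin resistance signal, but differed in a viral LTR probe as well as in the large T probe. The Moloney murine sarcoma virus LTR probe read 3260.7 and 3524.9 units in IKKa-null and 292 and 219.5 in reconstituted cells, and 94.1 and 119.2 in wild type, below background.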
